A study of Mus musculus with 8 samples.

Results

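The interleukin-6 family of cytokines, its receptor chains, the transcription factor gene Stat3 and the feedback inhibitor gene Socs3 were followed in mouse bone marrow mesenchymal stem cells exposed to ellagic acid. The set holds 10 genes, chosen by symbol from the 21899 genes of the deposited count table, and all 10 were found there. They are 3 cytokine genes (Il6, Il11 and Lif), 5 receptor genes (Il6st, Il6ra, Osmr, Lifr and Il11ra1) and the signalling genes Stat3 and Socs3. Cells of the femur received 10 µM ellagic acid (EA), a plant polyphenol, for 48 h, and control cells received the solvent DMSO at the matching dose. There were 4 poly(A) RNA libraries in each group. The sources used here give neither strain, sex, age and passage number nor whether replicate libraries stem from different mice or cultures. The p-values therefore reflect only variation among these libraries, part or all of which may be technical.

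Cytokines of this family signal through receptors that contain gp130, the product of Il6st. A ligand first binds its own chain, such as the IL-6 receptor alpha (Il6ra) or the IL-11 receptor alpha (Il11ra1), or engages gp130 together with the LIF receptor (Lifr) or the oncostatin M receptor (Osmr). Janus kinases bound to these chains then phosphorylate STAT3, which enters the nucleus and switches on target genes, among them Socs3, whose product blocks gp130 signalling. Marrow stromal cells are a known source of IL-6 and LIF, and the family is known for its effects on bone formation, bone resorption and blood cell production.

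Total counts ranged from 14112519 to 17390200 reads per library. Stromal marker genes were abundant, with a summed level of 16900 to 19400 CPM (counts scaled to a common library total) in control and 18900 to 19700 in EA. Col1a1 and Col1a2, the type I collagen genes, supplied most of that sum, with means of 6350 and 8920 CPM in control and 6570 and 9340 in EA. Eng (2.45 and 3.11 CPM in control and EA) and Nt5e (4.98 and 5.53 CPM) were low. With TMM factors, 7 of 11 tested stromal markers were called higher in EA and 2, Ly6a and Vcam1, lower. Of all tested genes 33.1% were called higher and 34.2% lower. Pdgfra (156 and 557 CPM in control and EA) and Pdgfrb (215 and 459 CPM) were among the higher markers. Thy1, a usual marker of these cells, was close to absent with 12 reads in the 4 control libraries and 7 in EA. Markers of other cell types were low. The 11 macrophage and monocyte markers summed to 68.3 to 85.6 CPM in control and 52.9 to 56.9 in EA, nearly all of it from Cd14 (mean 38.6 CPM in control and 8.5 in EA, called lower) and Lyz2 (38.9 and 45.0 CPM, called higher), while the defining genes Ptprc, Adgre1, Itgam and Tyrobp had 16, 5, 1 and 1 reads in control and 17, 2, 0 and 0 in EA. Neutrophil, lymphocyte, endothelial and adipocyte markers summed to at most 1.67, 1.26, 4.73 and 8.55 CPM in any library, with Cxcr2 and Cd3e at 0 throughout. Their part in the results below was not tested. In these bulk libraries, fewer cells of a type and less RNA per cell cannot be told apart.

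Of the 10 genes, 9 had enough reads to be tested, and all 9 differed between EA and control with an adjusted p below 0.05 (quasi-likelihood test of edgeR, Benjamini-Hochberg adjustment over 11777 genes). Il6ra, Lif, Stat3 and Il11ra1 rose, and Il6, Lifr, Osmr, Socs3 and Il6st fell. Il11, with 3 reads in control and 38 in EA, was too low to be tested. Of all tested genes, 67.2% passed the same threshold, 33.1% higher and 34.2% lower, so passing it did not set these genes apart. A change of 2-fold or more was seen for Il6ra, Il6, Lif and Lifr, and for 17.7% of all tested genes. The 4 EA libraries and the 4 control libraries did not overlap for any of the 10 genes, as was the case for 60.6% of tested genes (29.9% with EA above control and 30.7% with EA below). Levels of a single gene are given below in CPM scaled with TMM factors, which correct for differences in library composition.

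**Figure D1:**
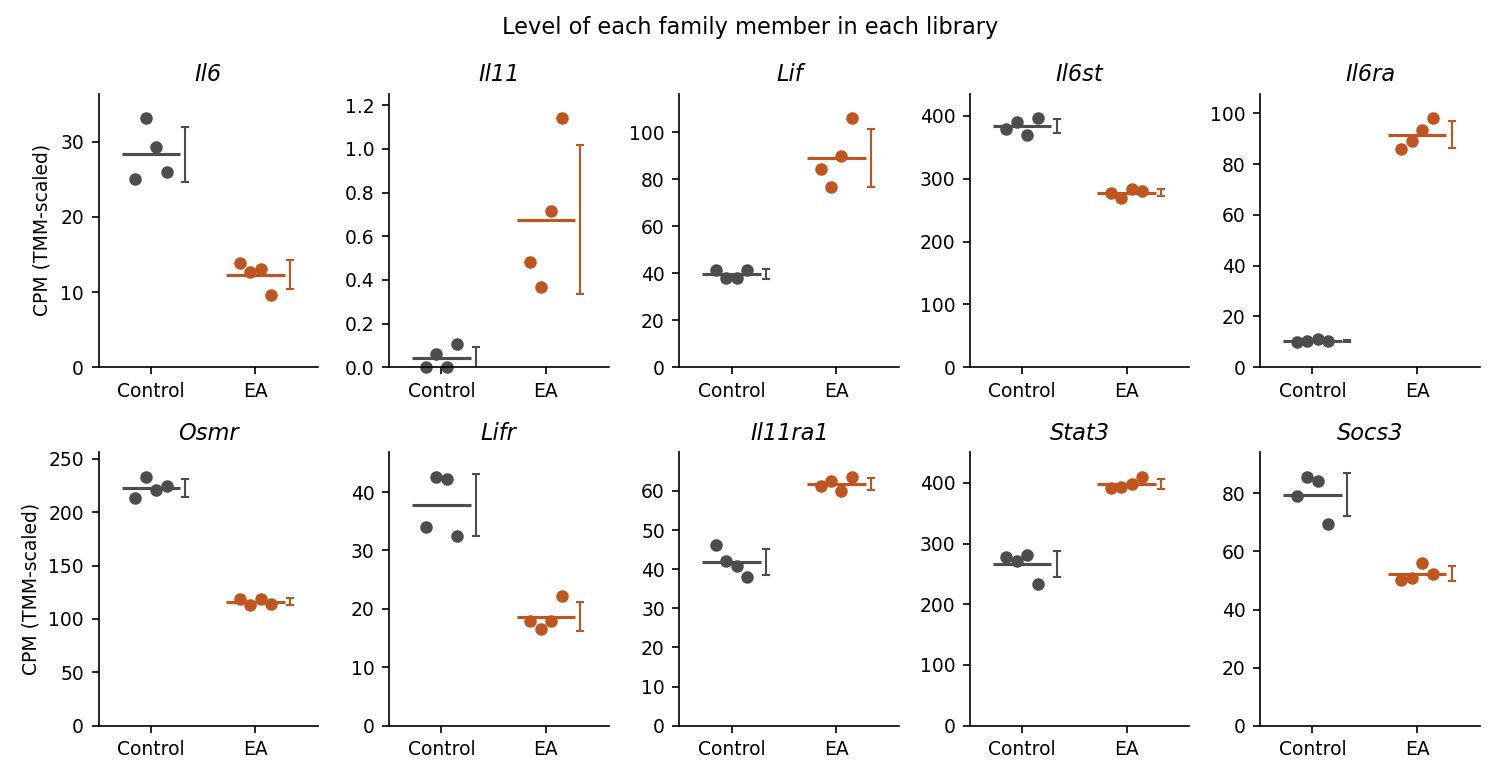
Level of each of the 10 genes in each library, as CPM with TMM scaling on a linear axis from 0. Points are libraries in the order of their numbers, horizontal lines are group means, and bars are 1 SD (n = 4). In every panel the control and EA points are apart, and Il6ra lies between 10.0 and 11.0 in control and between 85.8 and 98.0 in EA.

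The cytokine genes went different ways. Il6 (chromosome 5, 30218112 to 30224979, build GRCm39), which encodes interleukin 6, stood at 25.0, 33.1, 29.3 and 26.0 CPM in control libraries 1 to 4 and at 13.9, 12.7, 13.1 and 9.54 CPM in EA libraries 1 to 4. Every EA library was below every control library, and EA library 4 was the lowest. Il6 fell by 1.20 ± 0.12 on the log2 scale (SE, adjusted p = 1.59e-08, edgeR), so that its level was 2.30-fold lower.

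Lif (chromosome 11, 4207557 to 4222514), which encodes leukaemia inhibitory factor, moved in the other direction. Its levels were 41.4, 37.8, 37.9 and 41.6 CPM in control and 84.3, 76.7, 89.8 and 106 CPM in EA. The control libraries lay close together and the EA libraries spread more widely, with EA library 4 the highest. The log2 fold change was 1.17 ± 0.08 (SE, adjusted p = 2.18e-10, edgeR), a 2.25-fold rise.

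Because these cytokine genes moved apart, their balance changed more than either level. Per length, in FPKM (reads scaled to gene length and library total), Lif stood at 0.795 ± 0.137 of the level of Il6 in control and at 4.20 ± 1.36 times that level in EA (SD, n = 4). The ratio was 0.926, 0.638, 0.723 and 0.892 in the control libraries and 3.38, 3.36, 3.83 and 6.20 in the EA libraries. Il6 was therefore the more abundant of this pair in every control library and Lif in every EA library. A ratio within a library does not depend on how libraries are scaled.

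Il11 (chromosome 7, 4775372 to 4785858) encodes interleukin 11, a cytokine of stromal and bone cells that is known to respond to TGF-beta. It had 0, 1, 0 and 2 reads in control and 6, 5, 11 and 16 reads in EA. Each EA library held more reads than any control library, although the highest EA level was only 1.14 CPM. Scaled to effective library sizes, the ratio of EA to control was 16.1, with a counting interval of 5.11 to 81.6 (95%, exact, counting error only). Tested without the count filter, it gave a log2 fold change of 3.77 ± 0.84 (SE, adjusted p = 6.5e-05, edgeR), and DESeq2 gave 4.01 ± 1.05 (adjusted p = 0.000402).

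The promoters of the cytokine genes are shown because these genes were the members whose upstream sequences held AP-1 matches. The windows are the 250 bases before an annotated start on the strand of the gene, read 5′ to 3′, from RefSeq on build GRCm38.p6 (not the build of the count table). Capitals mark matches, on either strand, to the AP-1 motif TGANTCA, the C/EBP motif TTGCNNAA, the STAT motif TTCNNNGAA or the NF-kB decamer motif; the CRE motif TGACGTCA was also searched and had no match in any member's window. The windows lie at chr5:30012864-30013113 (plus strand) for Il6, at chr11:4257318-4257567 (plus strand) for Lif and at chr7:4778142-4778391 (minus strand) for the second of 2 annotated Il11 starts.
Il6: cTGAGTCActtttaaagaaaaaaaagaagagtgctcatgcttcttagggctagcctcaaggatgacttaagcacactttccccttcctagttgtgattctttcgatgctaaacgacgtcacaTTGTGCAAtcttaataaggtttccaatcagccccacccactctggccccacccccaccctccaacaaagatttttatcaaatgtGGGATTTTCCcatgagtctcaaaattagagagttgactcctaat
Lif: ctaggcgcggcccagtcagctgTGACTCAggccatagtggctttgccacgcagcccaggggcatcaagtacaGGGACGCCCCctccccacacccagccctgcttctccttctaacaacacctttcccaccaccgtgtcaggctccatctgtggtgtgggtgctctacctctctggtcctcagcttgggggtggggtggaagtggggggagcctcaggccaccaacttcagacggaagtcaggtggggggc
Il11: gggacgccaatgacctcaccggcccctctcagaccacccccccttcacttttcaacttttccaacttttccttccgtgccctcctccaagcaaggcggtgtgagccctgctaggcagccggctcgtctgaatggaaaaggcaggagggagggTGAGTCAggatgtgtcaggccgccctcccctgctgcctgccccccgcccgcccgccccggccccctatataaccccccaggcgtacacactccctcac

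Il6 had an AP-1 match 249 to 243 bases before its start, a C/EBP match at 128 to 121 and an NF-kB decamer at 44 to 35. Lif had an AP-1 match at 228 to 222 and an NF-kB decamer at 178 to 169. Il11 had an AP-1 match at 98 to 92, and the window of its other start had none of the motifs. None of the matches overlapped another. Of 32851 promoter windows of this length, 6.75% held the AP-1 motif, 9.56% the C/EBP motif, 7.25% the NF-kB decamer and 1.55% the CRE motif. Among the 13 windows of the 10 genes, none of the 5 receptor genes and not Stat3 held any of these motifs. A match says only that these letters are present. The AP-1 motif stood upstream of Il6, which fell, and of Lif, which rose, and its part in either change was not tested.

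The receptor genes moved apart as well. Il6ra (chromosome 3, 89771366 to 89820503), which encodes the chain that binds IL-6 itself, had the largest change among the tested members. It was at 10.0, 10.3, 11.0 and 10.4 CPM in control and at 85.8, 89.0, 93.3 and 98.0 CPM in EA. The groups were separated by a wide gap with little spread inside either. Il6ra rose 8.77-fold (log2 fold change 3.13 ± 0.08, SE, adjusted p = 3.33e-18, edgeR), the 113th largest rise among 11777 tested genes.

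Il6st (chromosome 13, 112600604 to 112646620), the gene of the shared signal-transducing chain gp130, was the most abundant receptor gene per length in both groups. Its levels were 379, 391, 370 and 396 CPM in control and 277, 270, 284 and 281 CPM in EA. All EA libraries lay below all control libraries within a narrow range. Il6st was 1.38-fold lower (log2 fold change -0.47 ± 0.05, SE, adjusted p = 7.32e-08, edgeR), and with library totals in place of TMM factors the log2 fold change was -0.83.

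Osmr and Lifr encode the signalling chains that pair with gp130 for oncostatin M and for LIF. They are neighbours on chromosome 15, at 6843058 to 6904450 and 7120095 to 7226970, separated by 216 kb with no other gene of the table between them. Osmr was at 213, 233, 221 and 224 CPM in control and at 119, 113, 119 and 114 CPM in EA. It was 1.92-fold lower (log2 fold change -0.94 ± 0.05, SE, adjusted p = 3.8e-12, edgeR), with narrow groups that did not overlap.

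Lifr was less abundant and more variable. It was at 34.1, 42.6, 42.2 and 32.4 CPM in control and at 18.0, 16.5, 18.0 and 22.2 CPM in EA. Control libraries 2 and 3 were higher than 1 and 4, and all stood above EA library 4, the highest of its group. Lifr was 2.02-fold lower (log2 fold change -1.02 ± 0.11, SE, adjusted p = 8.5e-08, edgeR). Thus the ligand gene Lif rose while the gene of its receptor chain fell. The FPKM ratio of Osmr to Lifr was 5.31 ± 0.684 in control and 5.60 ± 0.687 in EA (SD, n = 4), with overlapping ranges of 4.66 to 6.16 and 4.58 to 6.08.

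Il11ra1 (chromosome 4, 41699989 to 41769474) encodes the chain that binds IL-11. It was at 46.2, 42.2, 40.9 and 38.1 CPM in control and at 61.2, 62.5, 60.1 and 63.6 CPM in EA. The groups did not overlap, and Il11ra1 rose 1.48-fold (log2 fold change 0.56 ± 0.07, SE, adjusted p = 4.62e-07, edgeR), or by 0.20 on the log2 scale with library totals. This value is uncertain, because the entry overlaps 6 other genes of the table (among them Dctn3, Galt and Rpp25l), because it is not stated whether counting used strand, and because Il11ra2 is a near-identical copy. Il11ra2 itself had 0 reads in control and 3 in EA.

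The makeup of the receptor set therefore differed between the groups. The FPKM of the 5 receptor genes summed to 76.0 ± 1.56 in control and 53.6 ± 1.07 in EA (SD, n = 4, by library totals). Il6st made up 51.6 ± 1.20% of the summed FPKM in control and 41.2 ± 0.540% in EA, and Osmr 27.4 ± 0.625% and 15.8 ± 0.515%. Il6ra went from 1.80 ± 0.0869% to 17.4 ± 0.686%, Il11ra1 from 14.0 ± 1.18% to 22.8 ± 0.648%, and Lifr from 5.23 ± 0.709% to 2.85 ± 0.317%.

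Set against the shared chain, the change in Il6ra was larger still. Il6st exceeded Il6ra by 29.4, 29.4, 26.3 and 29.6 times in FPKM in the control libraries and by 2.51, 2.36, 2.37 and 2.23 times in the EA libraries. The mean ratio was 28.7 ± 1.61 in control and 2.37 ± 0.115 in EA (SD, n = 4), 12.1-fold lower. The ratio of Il11ra1 to Il6ra fell between the groups in the same sense, from 7.77 ± 0.831 to 1.31 ± 0.0689, with the uncertainty of Il11ra1 noted above. Against Osmr, Il6st went the other way, from 1.88 ± 0.0606 to 2.61 ± 0.0568.

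**Figure D2:**
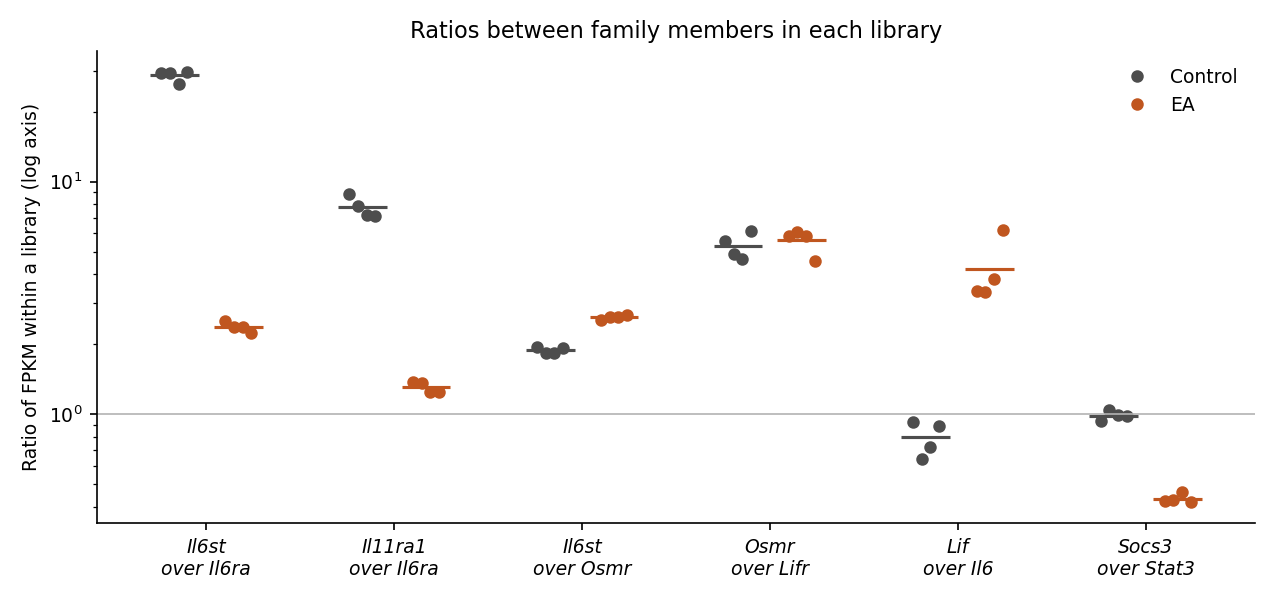
FPKM ratios between pairs of family genes within each library, on a log axis, with the line at 1 marking equal levels per length. Points are libraries, horizontal lines are group means (n = 4). The ratio of Il6st to Il6ra lies between 26.3 and 29.6 in control and between 2.23 and 2.51 in EA, whereas the ranges of Osmr over Lifr overlap.

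Stat3 and Socs3, the transducer gene and the feedback gene, also moved in opposite directions. Stat3 (chromosome 11, 100775924 to 100830366) was at 278, 272, 281 and 234 CPM in control and at 392, 393, 399 and 410 CPM in EA. Control library 4 was the lowest and the EA libraries formed a tight group above all controls. Stat3 rose 1.5-fold (log2 fold change 0.58 ± 0.06, SE, adjusted p = 3.04e-08, edgeR), or by 0.22 on the log2 scale with library totals. Its entry overlaps that of its neighbour Stat5a by 72 bases, and reads there could be counted for either.

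Socs3 (chromosome 11, 117856905 to 117860873) was at 79.0, 85.7, 84.4 and 69.4 CPM in control and at 50.2, 50.8, 55.9 and 52.2 CPM in EA. Control library 4 was again the lowest of its group and still lay above every EA library. Socs3 was 1.52-fold lower (log2 fold change -0.61 ± 0.07, SE, adjusted p = 3.03e-07, edgeR), or -0.97 on the log2 scale with library totals. In FPKM the ratio of Socs3 to Stat3 was 0.937, 1.04, 0.990 and 0.977 in control and 0.421, 0.426, 0.462 and 0.420 in EA. The transcripts were thus near equal per length in control, while in EA the ratio was 0.432 ± 0.0199 (SD, n = 4).

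The Socs3 promoter is shown because Socs3 was the only member whose windows held the STAT motif TTCNNNGAA, which 7.02% of all windows of this length contained. The 250 bases before its start lie at chr11:117969367-117969616 on the minus strand (RefSeq, GRCm38.p6). The match, in capitals, stood 154 to 146 bases before the start.
Socs3: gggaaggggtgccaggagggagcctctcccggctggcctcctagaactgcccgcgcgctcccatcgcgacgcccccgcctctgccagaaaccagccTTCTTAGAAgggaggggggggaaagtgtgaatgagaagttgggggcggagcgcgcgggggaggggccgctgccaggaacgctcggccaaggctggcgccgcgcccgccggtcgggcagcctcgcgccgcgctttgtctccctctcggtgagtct

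Ordered by FPKM in control, Il6st (39.2 ± 1.04) stood above Stat3 (31.7 ± 2.71) and Socs3 (31.2 ± 3.04), whose libraries overlapped. Osmr (20.9 ± 0.801) came next. Il6 (13.2 ± 1.75), Il11ra1 (10.6 ± 0.850) and Lif (10.3 ± 0.494) followed, and each overlapped the next in this order. Lifr (3.98 ± 0.579), Il6ra (1.37 ± 0.0574) and Il11 (0.0226 ± 0.0281) were the lowest, with no overlap between them. In EA the order began with Stat3 (36.9 ± 0.688) and Il6st (22.1 ± 0.480). Lif (18.1 ± 2.47) and Socs3 (15.9 ± 0.803) came next and overlapped. Below them, without overlap between neighbours, were Il11ra1 (12.2 ± 0.269), Il6ra (9.33 ± 0.526), Osmr (8.45 ± 0.238), Il6 (4.47 ± 0.705), Lifr (1.53 ± 0.196) and Il11 (0.286 ± 0.143). All are SD with n = 4. These FPKM are scaled by library totals, so differences between groups on this scale are not those of the TMM-scaled values above.

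The directions of the 9 tested genes held under every scaling tried. With library totals alone the median over all tested genes moved on the log2 scale from -0.02 to -0.38, and the table as a whole then had 1940 genes higher (16.5%) and 7196 lower (61.1%). Under that scaling Il6ra, Lif, Stat3 and Il11ra1 were still higher in EA and the other 5 still lower. Il11ra1 (adjusted p = 0.0137) and Stat3 (adjusted p = 0.00645) had, at their largest over all alternatives, the weakest p-values of the 9 genes (edgeR or limma).

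**Figure D3:**
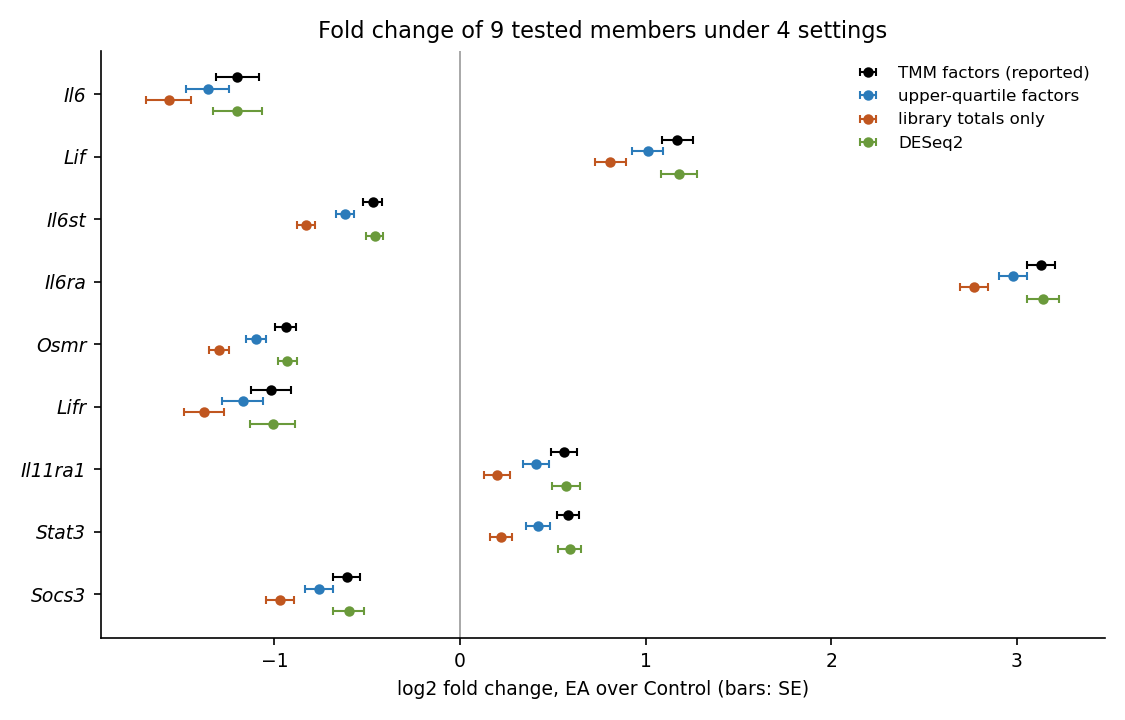
Log2 fold change of EA over control for the 9 tested genes, with 1 SE, under TMM factors, upper-quartile factors, library totals and DESeq2. Library totals place each gene to the left of TMM, as with Stat3 at 0.22 against 0.58, and no gene crosses 0.

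The remaining genes of the pathway, taken from lists by role, were examined next. Of 89 such genes 75 were tested, of which 35 rose and 25 fell with TMM factors, against 33.1% and 34.2% of all tested genes, with a median log2 fold change of 0.18 against -0.02 for all tested genes. With library totals 25 rose and 36 fell, against 16.5% and 61.1% of all tested genes. The median was then -0.19 against -0.38 for all tested genes.

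Of 8 other cytokine genes of the family, Clcf1 was tested. It encodes a cytokine that acts through gp130, Lifr and the CNTF receptor. Clcf1 rose 2.09-fold, from 58.8 ± 4.79 to 123 ± 15.6 CPM (SD, n = 4, adjusted p = 1.7e-09, edgeR). Osm, the ligand of Osmr and the neighbour of Lif at a distance of 16.5 kb, had no read in any of the 8 libraries, which allows a level of up to 0.0240 CPM. Ebi3 and Il31 had no reads either. Ctf1, Ctf2, Cntf and Il27 were too low to be tested, as were the receptor genes Cntfr, Il27ra, Il31ra and Il11ra2. Il27 had 8 reads in control and 24 in EA, and its libraries overlapped between the groups. Without the count filter Il27 was called higher (edgeR), but not with DESeq2. Cntfr, which encodes the binding chain for CNTF and CLCF1, averaged 0.202 ± 0.105 CPM in control and 0.174 ± 0.122 in EA.

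None of the 4 Janus kinase genes was called higher with TMM factors and all libraries, against 33.1% of all tested genes. Jak1, the kinase most used by gp130, averaged 218 ± 5.83 CPM in control and 219 ± 8.37 in EA, a log2 difference of 0.00 ± 0.05 (SE, adjusted p = 0.943, edgeR). Jak2 stood at 84.9 ± 9.48 and 91.4 ± 4.17 CPM (adjusted p = 0.203), but without control library 4 it was called higher, at a log2 fold change of 0.18 (adjusted p = 0.0178, edgeR). Tyk2 was 1.47-fold lower (adjusted p = 1.63e-05) and Jak3 1.37-fold lower (adjusted p = 0.000436). With library totals all 4 kinase genes were lower, as were 61.1% of all tested genes. Jak1 was then at a log2 fold change of -0.36 and Jak2 at -0.26. With upper-quartile factors 3 of the 4 were called lower, as were 5338 of all 11777 tested genes. Jak1 was among them, at a log2 fold change of -0.15 (adjusted p = 0.0139, edgeR).

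Among the other STAT genes, Stat2, which acts in interferon signalling, was 2.63-fold lower (adjusted p = 1.35e-12, edgeR). Stat5b rose 1.21-fold and Stat5a 1.22-fold (adjusted p = 0.00176 and 0.022), but neither passed with upper-quartile factors and both turned to -0.08 with library totals. Stat5a also missed the threshold without control library 4 (adjusted p = 0.0676), EA library 1 (0.0587) or EA library 3 (0.0868). Stat6 was 1.12-fold lower (adjusted p = 0.0145), which did not pass without control library 2 (0.0556), control library 3 (0.0528) or EA library 1 (0.0736). Stat4 had no reads.

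Of 15 tested genes listed as inhibitors of the pathway 8 rose and 3 fell, against 33.1% and 34.2% of all tested genes. With library totals 6 rose and 6 fell, against 16.5% and 61.1% of all tested genes. The list includes Ptpn11, the gene of SHP2, which also carries signal in the arm described next. Ptpn11 was not called with TMM factors (adjusted p = 0.866, edgeR). In contrast to Socs3, Socs2 rose 3.01-fold, from 14.2 ± 1.31 to 42.9 ± 3.15 CPM (adjusted p = 2.28e-12, edgeR), and Socs7 rose 3.60-fold, from 52.3 ± 4.67 to 188 ± 7.65 CPM (adjusted p = 1.69e-15). Socs1, the inhibitor closest in action to Socs3, rose 2.37-fold from 5.52 ± 1.16 to 13.1 ± 1.62 CPM (adjusted p = 2.47e-07). Socs5 was 1.24-fold lower (adjusted p = 0.000351). Socs4 and Socs6 did not pass, at log2 fold changes of 0.11 and 0.15, but both passed without control library 4, at 0.28 and 0.23, and Socs6 without EA library 4 too, at 0.22, while with library totals Socs4 was at -0.25 and Socs6 at -0.21. The phosphatase gene Ptpn1 rose 3.24-fold, from 71.8 ± 4.22 to 233 ± 7.61 CPM (adjusted p = 9.26e-16), while Ptpn2 and Pias4 were 1.21-fold and 1.28-fold lower.

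Of 9 adaptors of the SHP2, RAS and PI3K arm, 3 were higher and 3 lower, near the shares of all tested genes (33.1% and 34.2%). With library totals 1 was higher and 6 lower, against 16.5% and 61.1% of all tested genes. Shc1 rose 1.68-fold, while Irs1 was 3.16-fold lower and Pik3r1, the regulatory subunit gene of PI3K, 2.62-fold lower. Sos2 rose 1.52-fold and Grb2 1.13-fold, and Sos1 was 1.76-fold lower. With library totals Sos2 no longer passed (adjusted p = 0.0766) and Grb2 turned to a log2 fold change of -0.19. Grb2 also missed the threshold with upper-quartile factors (log2 fold change 0.02, adjusted p = 0.813, edgeR) and without EA library 4 (adjusted p = 0.0503, edgeR). Of the sheddases that release soluble IL-6 receptor, Adam17 was 1.63-fold lower (adjusted p = 2.83e-09, edgeR). Adam10 rose 1.27-fold (adjusted p = 8.1e-05), a value that library totals brought to -0.02 on the log2 scale.

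Known STAT3 target genes went both ways. Of 24 tested, 11 rose and 10 fell, Osmr included, against 33.1% and 34.2% of all tested genes. The median log2 fold change was 0.38 against -0.02 for all tested genes. With library totals 10 rose and 10 fell, against 16.5% and 61.1%, and the median was 0.02 against -0.38. Bcl6, a transcriptional repressor, was 6.69-fold lower, from 86.6 ± 4.93 to 12.9 ± 1.41 CPM (SD, n = 4, adjusted p = 8.73e-17, edgeR). The kinase gene Pim3 was 2.57-fold lower and Cebpd, a transcription factor of the acute phase response, 1.94-fold lower. Vegfa, an angiogenic growth factor gene, rose 3.59-fold, the AP-1 subunit gene Junb 4.06-fold and the IL-4 receptor gene Il4ra 3.48-fold.

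The listed regulators of Il6, Il11 or Lif expression held 10 higher and 6 lower genes of 20 (8 and 9 with library totals). The shares of all tested genes were 33.1% and 34.2% (16.5% and 61.1% with library totals). Zc3h12a, Arid5a and Zfp36, all among the higher genes with TMM factors, act on mRNA stability and not on transcription. The AP-1 subunit gene Jun rose 3.26-fold, from 126 ± 6.81 to 412 ± 22.9 CPM (SD, n = 4, adjusted p = 7.94e-16, edgeR), beside Junb, and Runx2, the master regulator of osteoblasts, rose 2.35-fold. The NF-kB subunit genes Relb and Nfkb2 were 1.89-fold and 1.4-fold lower (adjusted p = 1.38e-10 and 2.05e-07). Whether the regulators bear on the cytokine genes was not tested.

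**Figure D4:**
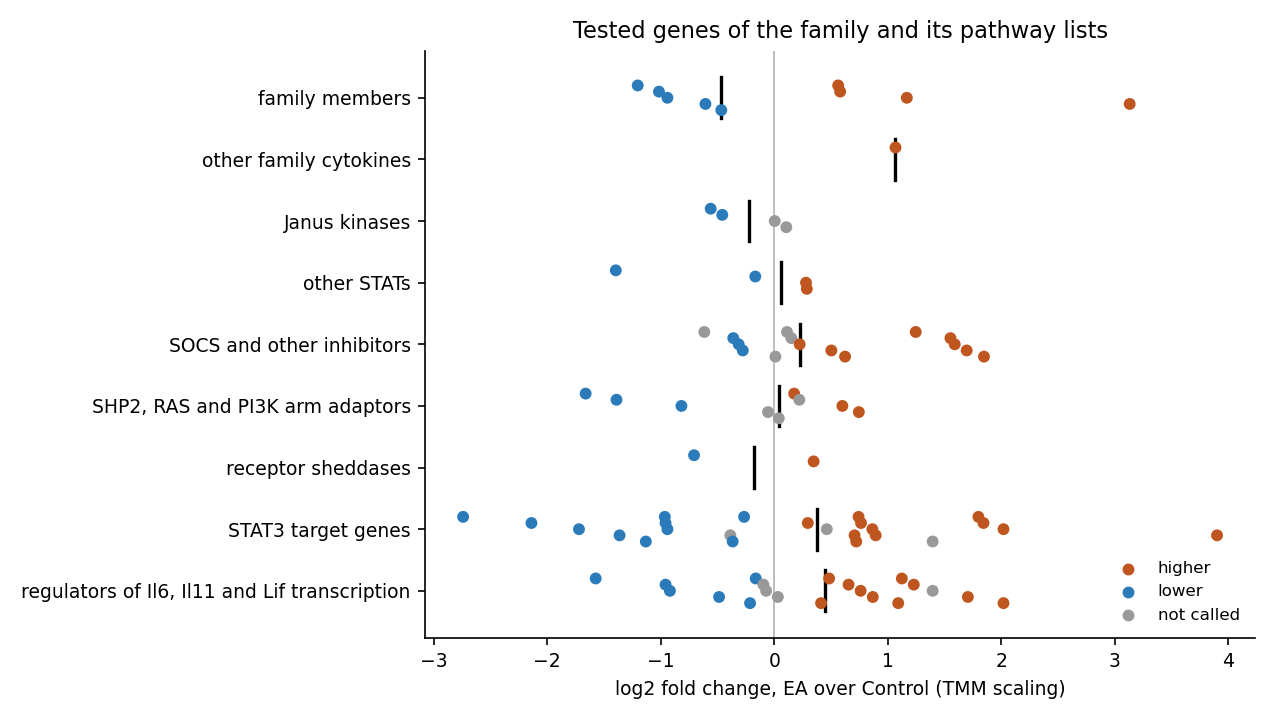
Log2 fold change of EA over control (TMM scaling) for each tested gene of the family and of its pathway lists. Points are genes, coloured by whether they passed an adjusted p of 0.05, with vertical offsets only to keep them apart, and black lines are list medians. The cytokine gene Clcf1 lies above 1, and STAT3 target genes spread to both sides of 0. The list labelled as regulators of transcription also holds genes that act on mRNA stability.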

How the data were processed

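Poly(A) RNA of 4 control and 4 EA libraries was sequenced on an Illumina platform, per the labels' protocols. The read counts per gene and the FPKM values were made by the authors and deposited in a single table. The submitters' processing notes name cutadapt 1.15, HISAT2 2.0.5 and build GRCm39. The choice of counting tool, strand use and annotation version is not given in the sources used here.

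Deposited counts were fitted with edgeR 4.0.16 in R 4.3.3 (TMM factors, default count filter by group, robust quasi-likelihood F test without covariates), with Benjamini-Hochberg adjustment over 11777 tested genes and a threshold of 0.05. The SE of a log2 fold change is its absolute value over the root of the F statistic and so shares information between genes. CPM use effective library sizes, except for cell type markers, single or summed, and the limit at 0 reads (3 reads), which use library totals. The calls of single markers come from the fit with TMM factors, so their CPM do not give the tested fold changes. FPKM were used to compare genes. Intervals cover counting error only.

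The members, the pathway lists and the markers were chosen with earlier results of these data known. Some genes of the lists fixed at the start are not reported here and were left out of them. All members and the remaining JAK, STAT and SOCS genes were named, with up to 3 higher and 3 lower genes of each other list by p. Lists were counted and not tested. Alternatives were other scalings, filters, tools (DESeq2 1.42.0, limma 3.58.1 with voom or on log2 of FPKM plus 1 or 0.1), a threshold of 0.01, a replicate block and omission of each library. Tested on data simulated for the comparison of EA with control over 11777 genes, edgeR found 86.4% of 1.5-fold, 93.9% of 2-fold and 97.1% of 4-fold changes, with 7.96% of calls on unchanged genes. The simulation changed few genes, in random directions, without a shift in library composition. In the real comparison 67.2% of tested genes passed and composition differed between groups, so these rates need not apply there. Libraries of a group differed by more than sampling noise (chi-square per degree of freedom 2.82 to 16.9). The largest values came from pairs with control library 4 (15, 8.44 and 16.9). The other control pairs gave 5.53 to 6.06 and the EA pairs 2.82 to 7.85. Promoters came from RefSeq on GRCm38.p6 and matched 10 of 10 members. Figures were drawn with matplotlib 3.10.9.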

Additional observations from a re-analysis of the deposited data

Results flagged for a closer look

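In 34 groups of 4 libraries (10 genes and 7 FPKM ratios in each of control and EA), 4 held a library set far from the other 3 by Dixon's criterion, and chance gives about 1 in 20. All 4 were ratios. The ratio of Il6st to Il6ra was 26.3 in control library 3, against 29.4 to 29.6 in the other control libraries. The ratio of Osmr to Lifr was 4.58 in EA library 4, against 5.86 to 6.08. The ratio of Lif to Il6 was 6.20 in EA library 4, against 3.36 to 3.83. The ratio of Socs3 to Stat3 was 0.462 in EA library 3, against 0.420 to 0.426. In each case but Osmr over Lifr, the library still lay apart from all libraries of the other group.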

How the results depend on the processing

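The 9 tested members kept their direction and stayed past the threshold in all 19 alternatives. Log2 fold changes over these ranged from -1.57 to -1.09 for Il6, 0.74 to 1.24 for Lif, 2.12 to 3.16 for Il6ra, -0.83 to -0.45 for Il6st, -1.30 to -0.91 for Osmr, -1.38 to -0.95 for Lifr, 0.19 to 0.62 for Il11ra1, 0.22 to 0.61 for Stat3 and -0.97 to -0.56 for Socs3. The lowest value for Il6ra came from log2(FPKM + 1), a scale that understates the change of low genes. Il11 gave a value only without the count filter and with DESeq2.

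Higher and lower calls over all genes were 1940 and 7196 with library totals, 1924 and 7170 with limma on log2(FPKM + 1), and 1922 and 7179 with a pseudocount of 0.1. Against the TMM value, the log2 fold change changed sign with library totals, with log2(FPKM + 1) and with log2(FPKM + 0.1), in that order, for Jak1 (-0.36, -0.35, -0.36), Jak2 (-0.26, -0.24, -0.25), Stat5a (-0.08, -0.06, -0.07), Stat5b (-0.08, -0.07, -0.08), Grb2 (-0.19, -0.18, -0.19), Adam10 (-0.02, -0.01, -0.01), Socs4 (-0.25, -0.19, -0.22) and Socs6 (-0.21, -0.17, -0.21). With upper-quartile factors it was below 0 for Jak1 (-0.15), Jak2 (-0.05) and Socs4 (-0.04) and at 0.00 for Socs6. Of these only Jak1 was then called lower (adjusted p = 0.0139, edgeR). Jak1, at 0.00 with TMM factors, lay within 0.03 of 0 on either side in the other alternatives. Whether the scaling with or without composition factors is closer to the RNA content of the cells was not tested.

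Same-numbered control and EA libraries showed little shared deviation from their group means (correlations of -0.0215 to 0.0266). With 4 libraries per group this check could miss a weak pairing, so pairing by number was not excluded. With replicate number as a block, 3834 genes were higher and 3960 lower, and the members divided into 4 and 5 as before. Leaving out each library moved no member past the threshold. Depth limits Il11, Osm and the other genes with few reads.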
